A study of Mus musculus with 9 samples.

Results

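The 8 genes described here code for proteins that sense foreign RNA and other nucleic acids inside the cell, or that act directly on such sensing: Ddx58, Ifih1, Dhx58, Mavs, Tlr3, Eif2ak2, Zbp1 and Adar. They were taken by name from a table of 24186 mouse genes, and each name belonged to a single Ensembl identifier. The rule names genes and uses no measured value, but the genes were chosen with earlier results of these data known. All 8 passed the filter on low counts that left 15098 genes for testing.

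Poly(A) RNA was sequenced from 9 cultures of bone marrow stromal cells, the fibroblast-like cells that can give rise to bone and fat cells. The cells came from adult C57Bl/6 mice with the transgene irtTA-GBD*-TAg, in which dexamethasone and doxycycline switch on large T antigen. All groups therefore share this conditional immortalisation, and all were kept without both inducers for 3 days before RNA was taken. The first group held adipogenic progenitors, which can form fat cells, exposed over 3 days to interferon-γ (IFNγ) at 10 ng/ml. The second held osteogenic progenitors, which can form bone cells, without IFNγ. The third held untreated adipogenic progenitors. Each group had 3 libraries, called 4, 5 and 6 after their labels. The cells were cloned, but how many clones or animals stand behind a group is not given in the labels, so p-values measure the spread between these libraries.

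RIG-I, the product of Ddx58, and MDA5, the product of Ifih1, are helicases of the cytoplasm that bind viral double-stranded RNA. Both pass the signal to MAVS on the outer membrane of mitochondria, which leads to production of type I interferon. LGP2, the product of Dhx58, is a related helicase that lacks the signalling domain of the other members of its family and modulates them. TLR3 detects double-stranded RNA in endosomes. PKR, the product of Eif2ak2, is a kinase that halts translation when it binds such RNA. ZBP1 binds nucleic acids in the left-handed Z form and can start necroptosis, a form of cell death. ADAR edits adenosine to inosine in double-stranded RNA, which keeps the cell's own RNA from being sensed. Most of these genes are known to be interferon-inducible in many cell types, through elements in their promoters that bind IRF transcription factors.

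Promoter windows in RefSeq (build GRCm38.p6, 250 bases before to 50 after an annotated start) were found for 6 of the 8 genes, 8 windows in all, and none for Dhx58 and Zbp1. They were searched on both strands for the core of the interferon-stimulated response element (ISRE), which is GAAA, then 2 bases of any kind, then GAAA. The shorter AANNGAAA, the core bound by IRF factors, was also searched, and an ISRE core always contains an AANNGAAA match. The ISRE core stood in the windows of Ddx58, Ifih1 and Eif2ak2, against 3.43% of all 32817 mouse windows. The IRF core stood in those windows, in the Tlr3 window and in the last of the 3 Adar windows, against 23.9% of all windows. The window of Mavs held neither match. The 30 bases around the longest IRF-type match of each gene are shown because such elements are where IRF factors are known to bind in interferon-inducible promoters, with the match in capitals.
Ddx58: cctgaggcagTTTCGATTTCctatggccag
Ifih1: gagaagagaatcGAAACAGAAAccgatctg
Eif2ak2: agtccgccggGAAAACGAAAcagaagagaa
Tlr3: aagtgaatggcTTTCACTTtgtttagacac
Adar: ccttttcaaggAAACGAAAgtgaactctgg
The sequences read 5′ to 3′ along the strand of each gene, so the Ddx58 and Tlr3 matches lie on the opposite strand. They are at chr4:40239804-40239833, chr2:62646206-62646235, chr17:78882535-78882564 and chr8:45410421-45410450 on the minus strand and at chr3:89730736-89730765 on the plus strand. Counted from 1 at the first base after the start, the matches of Ddx58, Ifih1, Eif2ak2 and Adar begin at base 3, 33, 19 and 30, and the Tlr3 match begins 59 bases before it. A match of letters shows no binding.

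The libraries held 27440089 to 39251602 counts. Levels are given in CPM, a gene's count relative to its TMM-scaled library total. The limit that a count of 0 allows, set at 3 counts, was 0.0749 to 0.113 CPM and covers counting error only. Of 6 osteoblast markers, Sp7 had 1793 to 4289 counts in osteogenic libraries and 3 to 11 in all adipogenic ones, and Alpl 9217 to 13058 in osteogenic libraries and 70 to 718 in all adipogenic ones. Runx2 had 3994 to 4750 counts in osteogenic libraries and 1386 to 2817 in all adipogenic ones. Ibsp had 57 to 3671 counts in osteogenic libraries and 10 to 15 in all adipogenic ones. Spp1 and Bglap overlapped between osteogenic and untreated adipogenic libraries, and so did the sum of the 6, at 304 to 474 CPM with IFNγ, 636 to 2230 CPM in osteogenic and 276 to 1420 CPM in untreated adipogenic libraries. Of 6 fat cell markers, the regulator Pparg had 302 to 1453 counts with IFNγ, 170 to 436 in osteogenic and 710 to 2425 in untreated adipogenic libraries. The regulator Cebpa overlapped between all groups, with 360 to 871 counts with IFNγ, 743 to 968 in osteogenic and 380 to 2439 in untreated adipogenic libraries, and Fabp4 overlapped too. Lpl had 76 to 118 counts in osteogenic libraries and 409 to 11652 in all adipogenic ones. The mature fat cell genes Plin1 and Adipoq had at most 8 counts anywhere. The 6 summed to 87 to 333 CPM with IFNγ, 37.1 to 77.9 CPM in osteogenic and 74.9 to 646 CPM in untreated adipogenic libraries, and both other groups overlapped with the untreated one. Of 10 stromal markers 8 had at least 10 counts in every library of each group, and Thy1 had 0 or 1. The 10 summed to 7870 to 8830 CPM with IFNγ, 51600 to 73800 CPM in osteogenic and 12900 to 21800 CPM in untreated adipogenic libraries, without overlap. Col1a1 and Col1a2 made up most of it, and its order was opposite to that of most sensor genes below. By mean, Pdgfra, Pdgfrb, Eng and Lepr ran as the sum did. The osteogenic mean of Eng rested on library 5, at 1599 counts against 92 and 98 in libraries 4 and 6. Lepr had at most 15 counts in any library. Pdgfra averaged 17.9 CPM (SD 12.2) with IFNγ and 18.8 CPM (SD 10.3) in untreated adipogenic libraries. Ly6a (1410 CPM with IFNγ, 39.8 in osteogenic and 99.6 in untreated adipogenic libraries) and Vcam1 (130, 52.9 and 122) ran as most sensor genes did. Cxcl12 followed neither order. The part of these differences in the results was not tested. The 9 blood cell markers in the table, of 13 listed, summed to 7.13 to 13.5 CPM with IFNγ, 5.41 to 7.45 in osteogenic and 7.38 to 21.9 in untreated adipogenic libraries. Most of that sum was Cd68, and Ptprc, which marks all white blood cells, had at most 4 counts. The 5 endothelial markers in the table, of 6 listed, summed to 22.2 to 54.4 CPM with IFNγ, 1.67 to 2.63 CPM in osteogenic and 9.19 to 17.8 CPM in untreated adipogenic libraries. This sum was mostly Kdr and ran in the same order of groups as most sensor genes below, while the defining markers Pecam1 and Cdh5 had at most 6 counts in any library and Emcn had 0 in all.

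The first comparison asked what 3 days of IFNγ changed in adipogenic progenitors. Among the sensors 5 rose, namely Zbp1, Tlr3, Ifih1, Ddx58 and Adar, and none fell. Zbp1 was 74.2-fold higher and the other members of these 5 were between 2.51- and 6.31-fold higher. Over all genes tested, 2.26% passed an adjusted p of 0.05 and 2.01% passed as higher. The members' median log2 fold change was 1.55, against −0.02 over all genes tested. The test was edgeR's quasi-likelihood test of the groups without pairing of libraries. Its p-values were adjusted over all genes by Benjamini and Hochberg. Both hold here and below, also for fits that leave out 1 library, unless another test or a replicate block is named. In 7 members all 3 treated libraries lay above all 3 untreated ones, as in 10.2% of all genes tested, and in 1, Mavs, they lay below, as in 7.17%. In bulk RNA a change in the share of expressing cells and a change in RNA per cell cannot be told apart.

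**Figure D1:**
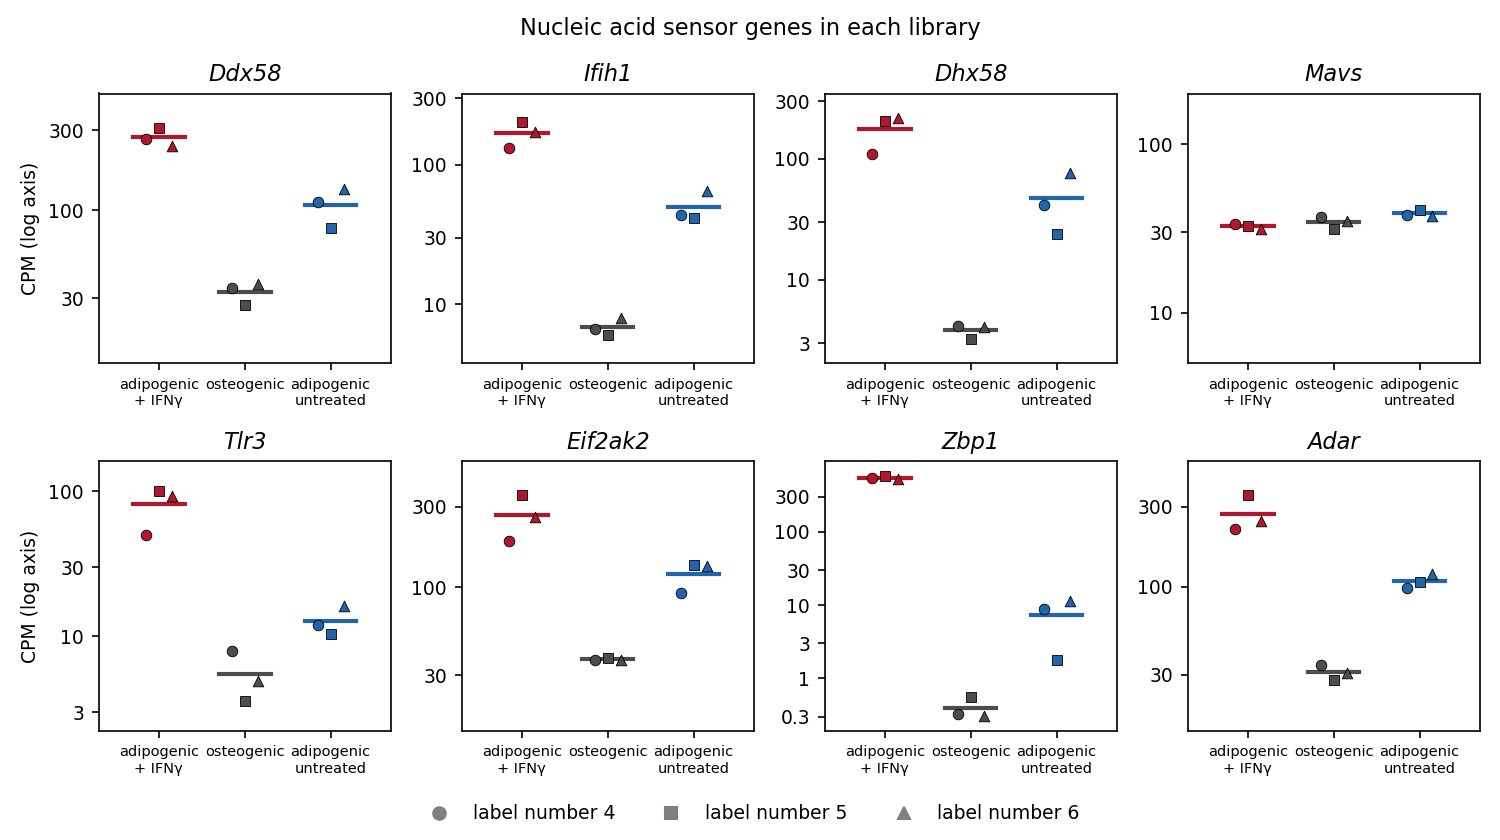
Levels of the 8 sensor genes in CPM on a log axis, with 1 point per library, the point shape giving the label number and the bar the mean of 3 libraries. With IFNγ all genes except Mavs lie above the untreated adipogenic libraries, and osteogenic libraries lie lowest for all except Mavs.

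Ddx58 (ENSMUSG00000040296), the gene of RIG-I, measured 266, 309 and 242 CPM in treated adipogenic libraries 4, 5 and 6, against 113, 78.8 and 134 CPM in the untreated ones. The groups did not overlap, and library 5 was the highest with IFNγ and the lowest without it. Ddx58 rose by a log2 fold change of 1.33 ± 0.21 (SE, adjusted p = 0.0153). The call was lost without untreated library 4 (adjusted p = 0.0675), without treated library 5 (0.0535) and with only the 6 libraries compared (0.0682). Ifih1 (ENSMUSG00000026896), the gene of MDA5, measured 132, 202 and 173 CPM with IFNγ, against 43.4, 41.3 and 64.6 CPM without it. It rose by 1.76 ± 0.23 on the log2 scale (adjusted p = 0.00573), a call kept in all 17 alternative fits, with adjusted p up to 0.0399. Dhx58 (ENSMUSG00000017830), the gene of LGP2, measured 110, 207 and 217 CPM with IFNγ, against 42.0, 24.1 and 76.4 CPM without it. All 3 treated libraries were above all 3 untreated ones, but both groups were widely spread. Its log2 fold change of 1.91 ± 0.42 did not pass (adjusted p = 0.067).

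Over all genes tested, adipogenic libraries that share a label number deviated together from their group means, with and without IFNγ. The number was therefore used as a replicate block in a paired fit, set beside the unpaired one. Not all sensor genes followed this pattern. For Ddx58, Ifih1, Tlr3 and Zbp1, library 5 was the highest with IFNγ and the lowest without it. Dhx58 was highest in library 6 of both groups, and Eif2ak2 in library 5 of both. With the block Dhx58 passed (log2 fold change 1.98, adjusted p = 0.017), and why it did was not tested. It also passed with DESeq2 (0.000436), with limma-voom (0.0461) and without untreated library 6 (0.0303). In the paired fit 7 of the 8 members passed as higher, against 6.53% of all genes tested. The call of every member that passed unpaired was kept with the pairing.

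Mavs (ENSMUSG00000037523), the shared adaptor of RIG-I and MDA5, measured 33.8, 32.9 and 31.2 CPM with IFNγ, against 38.2, 40.6 and 37.6 CPM without it. The treated libraries were all slightly lower than the untreated ones. The log2 difference of −0.25 ± 0.11 did not pass (adjusted p = 0.353), and its 95% interval ran from −0.50 to 0.0014. Mavs was the only member of the 8 without a positive fold change in this comparison.

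Tlr3 (ENSMUSG00000031639), the endosomal receptor, measured 49.6, 101 and 92.4 CPM with IFNγ, against 11.9, 10.4 and 16.2 CPM without it. The groups did not overlap, and treated library 4 stood below the other treated ones. Tlr3 rose by 2.66 ± 0.38 on the log2 scale (adjusted p = 0.00869), and the call was lost without untreated library 4 (0.0547). The other endosomal receptors of nucleic acids were close to undetected in all 9 libraries. Tlr7 had at most 10 counts in a library, Tlr9 at most 8, Tlr8 at most 1 and Tlr13 at most 1, and none of them passed the filter.

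Zbp1 (ENSMUSG00000027514), the sensor of Z-form nucleic acids, measured 531, 573 and 528 CPM with IFNγ, against 8.73, 1.76 and 11.4 CPM without it. The treated libraries stood close together, whereas the untreated ones rested on 310, 62 and 459 counts and differed widely. Zbp1 rose by 6.21 ± 0.65 on the log2 scale (adjusted p = 0.00204), a call kept in all 17 alternative fits, with adjusted p up to 0.021. Eif2ak2 (ENSMUSG00000024079), the gene of PKR, measured 189, 351 and 260.1 CPM with IFNγ, against 92.0, 135 and 134 CPM without it. The groups did not overlap, but the log2 fold change of 1.15 ± 0.24 narrowly missed the threshold (adjusted p = 0.0508). The replicate block brought it past the threshold (1.13, adjusted p = 0.00214), as did DESeq2 (0.000771), limma-voom (0.0488) and leaving out treated library 4 (0.0204). Adar (ENSMUSG00000027951), the editing enzyme, measured 219.6, 349.7 and 248 CPM with IFNγ, against 98.4, 106 and 120.1 CPM without it. It rose by 1.33 ± 0.19 on the log2 scale (adjusted p = 0.00869), and the call was lost without untreated library 4 (0.057) and with only the 6 libraries compared (0.0582). The counts are per gene, so the interferon-inducible long form of ADAR and its constitutive short form are added together.

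Without untreated library 4 the number of members called was 2, Ifih1 and Zbp1, and it was 4 to 6 without any other single library of this comparison.

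**Figure D2:**
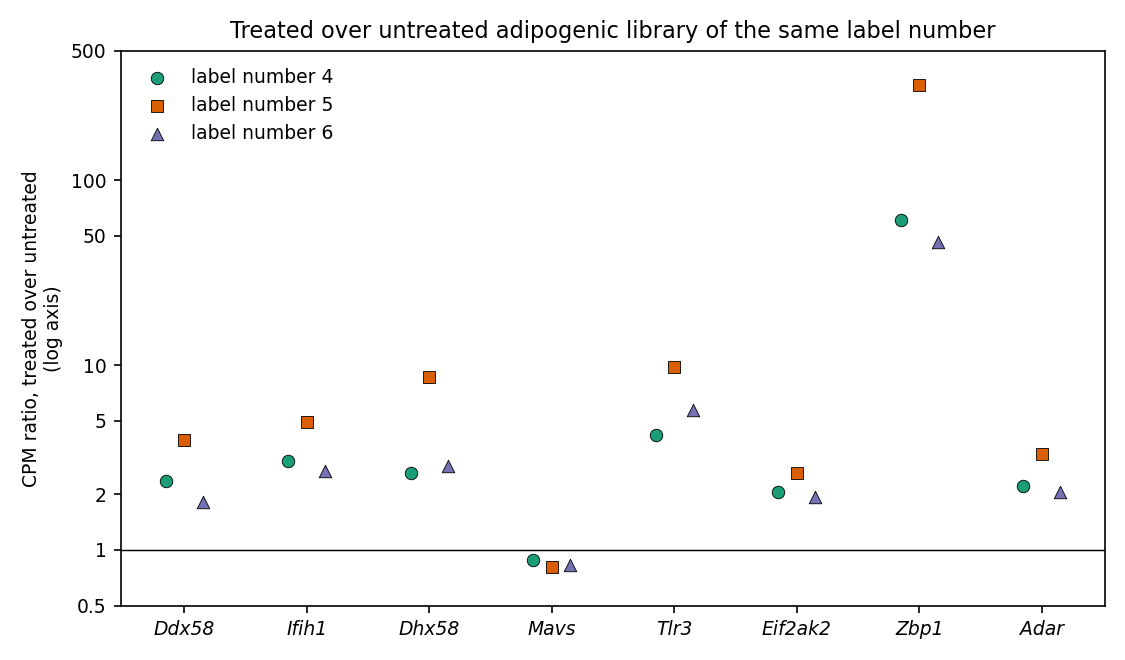
Ratio of CPM between the treated and the untreated adipogenic library of the same label number, on a log axis with a line at 1, for the 8 sensor genes. The ratio is largest for number 5 in every gene except Mavs, where all 3 ratios are just under 1.

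For every member the treated and untreated libraries did not overlap. Any pairing therefore puts the treated library above its partner, or below it for Mavs. Only the sizes of the ratios are therefore described. The ratio for Zbp1 was 60.9, 325 and 46.1 in pairs 4, 5 and 6. For Dhx58 it was 2.62, 8.60 and 2.85, and for Tlr3 it was 4.16, 9.70 and 5.72. The narrowest range was that of Eif2ak2, with ratios of 1.94 to 2.60, after Mavs at 0.810 to 0.885. Pair 5 had the largest ratio for each of the 7 genes that were higher with IFNγ. Untreated library 5 was the lowest untreated library for Ddx58, Ifih1, Dhx58, Tlr3 and Zbp1, but not for Eif2ak2 and Adar.

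The second comparison set osteogenic against untreated adipogenic progenitors, neither of which had received IFNγ. Of the sensors 6 were lower in the osteogenic group, namely Zbp1, Dhx58, Ifih1, Adar, Ddx58 and Eif2ak2, and none were higher. Over all genes tested 5.17% passed and 3.19% passed as lower. The members' median log2 fold change was −1.76, against −0.02 over all genes tested. All 8 members had the 3 osteogenic libraries below the 3 untreated adipogenic ones, a pattern that 15.9% of all genes tested showed.

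Zbp1 measured 0.333, 0.564 and 0.311 CPM in osteogenic libraries 4, 5 and 6, which rested on 11, 15 and 11 counts, against 8.73, 1.76 and 11.4 CPM in untreated adipogenic ones. It fell by 4.20 ± 0.67 on the log2 scale (adjusted p = 0.0157). The call was lost without osteogenic library 4 (0.0755), 5 (0.0557) or 6 (0.0731) and with limma-voom (0.0647). Dhx58 measured 4.17, 3.27 and 4.07 CPM in osteogenic libraries, against 42.0, 24.1 and 76.4 CPM in untreated adipogenic ones. The osteogenic libraries stood close together, and the log2 fold change was −3.63 ± 0.46 (adjusted p = 0.00739). Ifih1 measured 6.65, 6.02 and 7.99 CPM in osteogenic libraries, against 43.4, 41.3 and 64.6 CPM in untreated adipogenic ones. It fell by 2.85 ± 0.24 on the log2 scale (adjusted p = 0.00172), a call kept in all 16 alternative fits.

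Ddx58 measured 34.7, 27.5 and 36.7 CPM in osteogenic libraries, against 113, 78.8 and 134 CPM in untreated adipogenic ones (log2 fold change −1.72 ± 0.22, adjusted p = 0.00711). Adar measured 34.5, 28.0 and 30.6 CPM in the osteogenic and 98.4, 106 and 120.1 CPM in the untreated adipogenic libraries (−1.80 ± 0.19, adjusted p = 0.00355). Eif2ak2 measured 37.1, 38.0 and 37.0 CPM in the osteogenic and 92.0, 135 and 134 CPM in the untreated adipogenic libraries (−1.69 ± 0.24, adjusted p = 0.0111). These 3 genes, which code for a receptor, an editing enzyme and a kinase, had log2 fold changes between −1.80 and −1.69. The Eif2ak2 call was lost without osteogenic library 4 (0.061), 5 (0.055) or 6 (0.0504). Tlr3 measured 7.98, 3.57 and 4.91 CPM in osteogenic libraries, against 11.9, 10.4 and 16.2 CPM in untreated adipogenic ones. Its groups did not overlap, but its log2 difference of −1.22 ± 0.36 did not pass (adjusted p = 0.0962), although it did with DESeq2 (0.0157). Mavs measured 37.0, 31.5 and 35.1 CPM in osteogenic libraries, against 38.2, 40.6 and 37.6 CPM in untreated adipogenic ones, and did not pass (log2 difference −0.17 ± 0.11, 95% interval −0.42 to 0.08, adjusted p = 0.392).

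**Figure D3:**
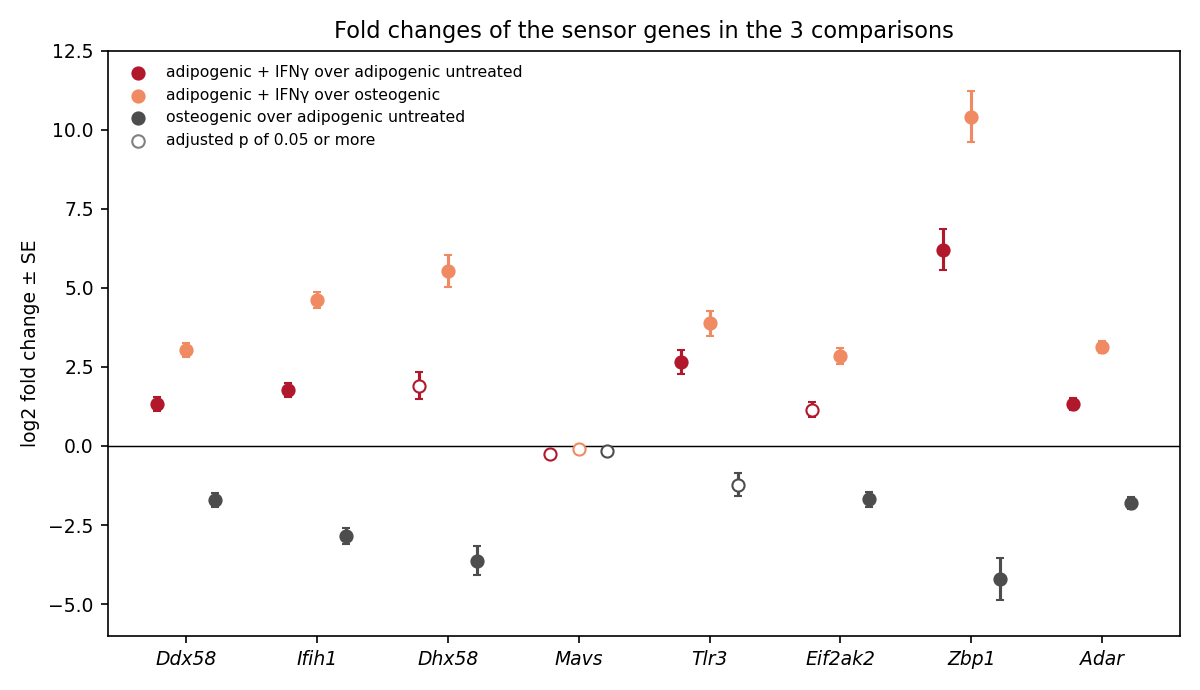
Log2 fold changes of the 8 sensor genes with their SE in the 3 comparisons; filled points have an adjusted p under 0.05 in edgeR's quasi-likelihood test and open points do not. Zbp1 has the largest fold change in each comparison and Mavs lies next to 0 in all 3.

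The third comparison set IFNγ-treated adipogenic against osteogenic progenitors, which differ in both cell type and treatment. All sensors except Mavs were higher in the treated adipogenic group, 7 of 8, while 16.7% of all genes tested passed and 9.2% passed as higher. The same 7 genes had no overlap between the groups, as 19.7% of all genes tested were higher without overlap. The median log2 fold change of the members was 3.51, against 0.03 over all genes tested. Zbp1 averaged 544 ± 24.9 CPM in treated adipogenic libraries and 0.402 ± 0.141 CPM in osteogenic ones (SD, n = 3 each), a log2 fold change of 10.42 ± 0.81 (adjusted p = 0.000171). Dhx58 averaged 178 ± 59.2 CPM in treated adipogenic and 3.84 ± 0.491 CPM in osteogenic libraries (5.53 ± 0.50, adjusted p = 0.00036). Ifih1 averaged 169 ± 35.1 CPM in treated adipogenic and 6.89 ± 1.01 CPM in osteogenic libraries (4.61 ± 0.26, adjusted p = 2.89e-05). For the other 4 genes called, the log2 fold change ran from 2.84 for Eif2ak2 to 3.88 for Tlr3. Mavs averaged 32.6 ± 1.29 CPM in treated adipogenic and 34.5 ± 2.76 CPM in osteogenic libraries, which overlapped, and did not pass (adjusted p = 0.662). These 7 calls were kept in all 16 alternative fits. The 3 comparisons share libraries, so their fold changes are not independent of each other.

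Levels of different genes were compared as CPM per kilobase of exon. With IFNγ, Zbp1 stood highest at 154 ± 7.05 CPM per kilobase (SD, n = 3), above the range of every other member. Eif2ak2 followed at 52.2 ± 15.9 and Dhx58 at 51.6 ± 17.1, which overlapped with each other, with Adar and with Ddx58. Ifih1, Tlr3 and Mavs came last at 30.6 ± 6.36, 18.4 ± 6.25 and 9.76 ± 0.387 CPM per kilobase, and neither Tlr3 nor Mavs overlapped with the gene above it. In osteogenic libraries the order began with Mavs, at 10.3 ± 0.825 CPM per kilobase, and ended with Zbp1, at 0.114 ± 0.0398. There Eif2ak2 stood at 7.30 ± 0.111, Ddx58 at 4.68 ± 0.682 and Adar at 4.57 ± 0.476, while Tlr3, Ifih1 and Dhx58 overlapped at means of 1.11 to 1.25. In untreated adipogenic libraries Eif2ak2 was highest at 23.5 ± 4.81 CPM per kilobase. Zbp1 was lowest in mean at 2.07 ± 1.42, and overlapped with Tlr3 at 2.92 ± 0.682. The adaptor Mavs was thus the most abundant of the 8 transcripts per length in osteogenic cells, by mean, and the least abundant in treated adipogenic cells, with means between 9.76 and 11.6 CPM per kilobase in all 3 groups.

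The genes with the most similar profiles were sought among 11246 named genes, by the root mean square difference between mean-centred log2 CPM over the 9 libraries, as a description with no test. Tor3a was the nearest gene to both Ddx58 (0.138 log2 units) and Adar (0.188), followed by Trim25 for Ddx58 (0.189) and Trim12c for Adar (0.188). Ifi35 (0.14) and Parp10 (0.26) were nearest to Eif2ak2, Rnf213 (0.236) and Oas1b (0.286) to Ifih1, and Apol9a (0.413) and Trim30a (0.423) to Dhx58. Ifi204 (0.308) and Piwil4 (0.344) were nearest to Tlr3, and the GTPase genes Gbp6 (0.539) and Gbp9 (0.625) to Zbp1. Mavs was nearest to Eif5a2 (0.068) and Tmem111 (0.0746). Among the members themselves the closest pairs were Eif2ak2 with Adar (0.197) and Ddx58 with Adar (0.217), and the most distant was Mavs with Zbp1 (4.35).

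Other genes of the same pathways were set beside the sensors. With IFNγ, 3 of 26 genes of RIG-I-like receptor signalling rose and none fell, with a list median of 0.07 on the log2 scale. They were Irf7, a transcription factor of interferon genes, Azi2, an adaptor of the kinase TBK1, and Trim25, a ubiquitin ligase that acts on RIG-I. Irf7 averaged 351 ± 89.4 CPM with IFNγ and 75.5 ± 23.2 CPM without it (log2 fold change 2.22 ± 0.29, adjusted p = 0.0058), a call kept in all 17 alternative fits. The calls of Azi2 (0.70 ± 0.14, 0.0453) and Trim25 (1.25 ± 0.26, 0.0492) were each lost in 10 of 17 alternative fits. Azi2 lost its call without any 1 of the 6 libraries (adjusted p up to 0.156), and Trim25 without any 1 except untreated library 6 (up to 0.176). Zc3hav1, an antiviral zinc finger protein, averaged 216 ± 26.1 CPM with IFNγ and 105 ± 31.3 CPM without it (adjusted p = 0.0549, with the replicate block 0.0146). With the replicate block 7 genes of this list rose. The count was 1 or 2 without any 1 of the 6 libraries, and 1 without untreated library 5 or treated library 4, 5 or 6. Of 9 tested genes of endosomal receptor signalling none passed. At an unadjusted p under 0.05, 2 of them were higher, DESeq2 called 0, limma-voom called 0 and the replicate block over all 9 libraries, in both its forms, called 0. The replicate block on the 6 adipogenic libraries alone called 2 higher, Unc93b1 (0.0136) and Myd88 (0.045).

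**Figure D4:**
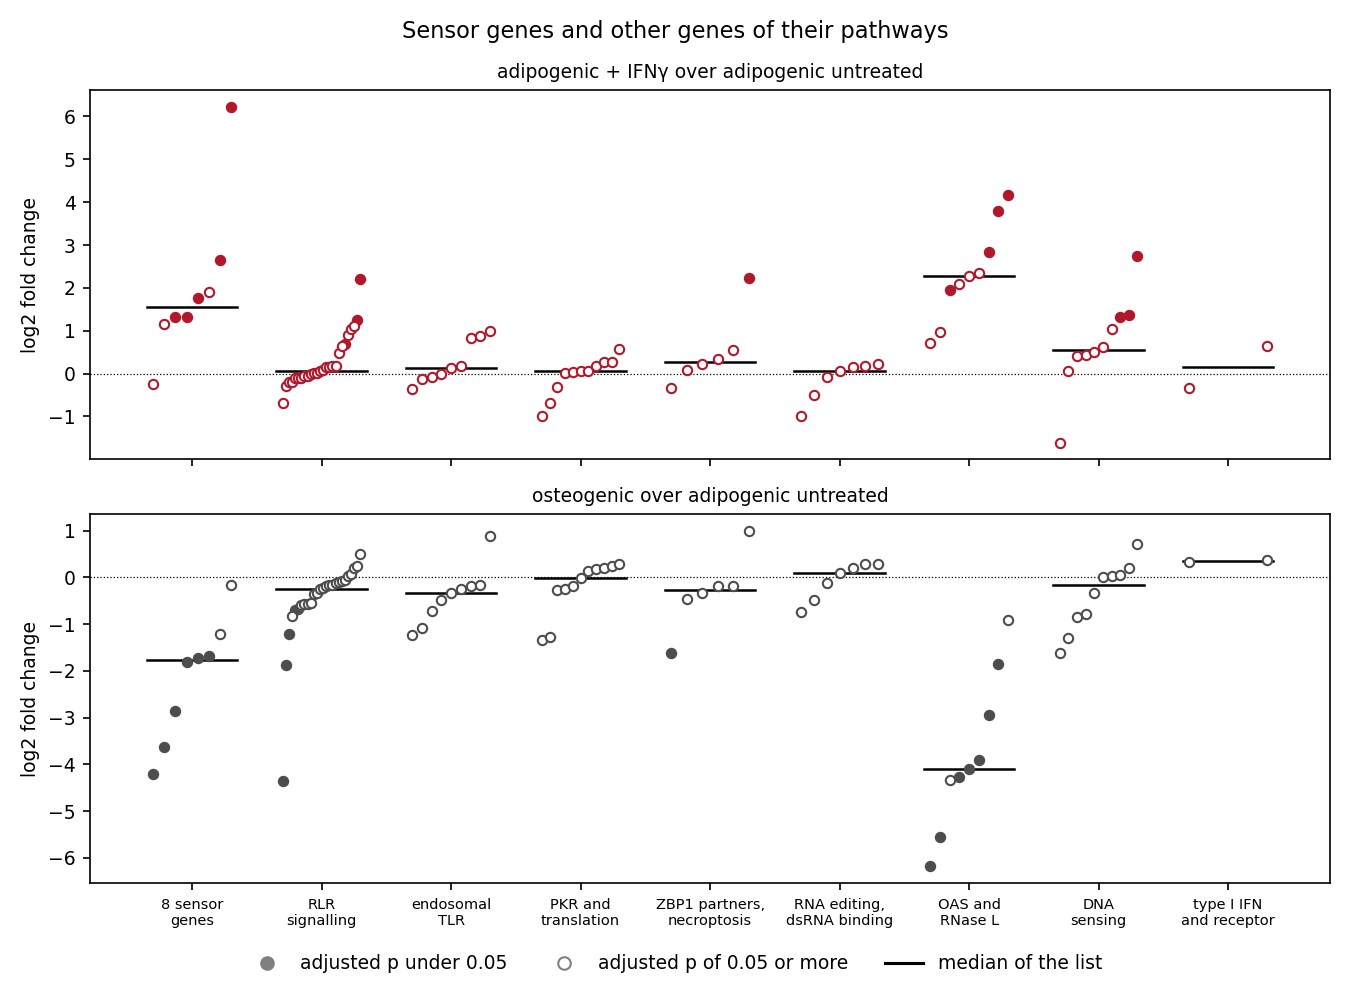
Log2 fold changes of the 8 sensor genes and of the tested genes of each pathway list, treated over untreated adipogenic progenitors above and osteogenic over untreated adipogenic progenitors below. Filled points passed an adjusted p of 0.05 and lines are list medians. The sensor genes and the OAS list have medians of 1.55 and 2.28 above and −1.76 and −4.10 below, while the medians of the other lists lie between −0.34 and 0.56.

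The oligoadenylate synthetases, which sense double-stranded RNA and activate the nuclease RNase L, stand beside the helicases in antiviral defence. All 9 OAS and RNase L genes had a positive fold change with IFNγ, and 4 rose, namely Oasl2, Oas1b, Oas3 and Oas2. Oasl2 averaged 634 ± 119 CPM with IFNγ and 89.2 ± 34.9 CPM without it (2.83 ± 0.36, adjusted p = 0.00562), a call kept in all 17 alternative fits. Oas1b (1.96 ± 0.28, 0.00898) lost its call without untreated library 4 (0.057). Oas3 (3.80 ± 0.58, 0.0129) lost its call without untreated library 5 (0.0649) or treated library 6 (0.05), and its log2 fold change was 4.50 without untreated library 6. Oas2 (4.17 ± 0.77, 0.0314) lost its call without untreated library 4 (0.13) or treated library 4 (0.0614), 5 (0.0719) or 6 (0.0907), and its log2 fold change was 5.03 without untreated library 6. The number of genes of this list that rose was 2 without untreated library 4, 6 without untreated library 6 and 6 with the replicate block. OAS genes have near-identical copies, so the level of a single one is uncertain.

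Of the partners of ZBP1 in cell death, 1 of 6 rose, Mlkl, the gene of the protein that opens the membrane in necroptosis. Mlkl averaged 246 ± 48.6 CPM with IFNγ and 52.6 ± 9.46 CPM without it (2.23 ± 0.36, adjusted p = 0.0169). It lost its call without untreated library 4 (0.0882), 5 (0.0516) or 6 (0.0775) or treated library 5 (0.055) or 6 (0.0682). Ripk1 averaged 141 ± 17.5 CPM with IFNγ and 95.7 ± 7.10 CPM without it (adjusted p = 0.0651, with the replicate block 0.00798). None of 11 genes of PKR and translation control and none of 7 tested genes of RNA editing passed. Among the first 3 were lower at an unadjusted p under 0.05, DESeq2 and limma-voom called 0, and the replicate block of the adipogenic cultures called 1, Eif2ak3, the kinase PERK, lower (0.00802). The replicate block on the 6 adipogenic libraries alone called 2 of these 11 lower, Eif2ak3 (0.01) and Ppp1r15a (0.042), and 1 higher. Among the second 0 had an unadjusted p under 0.05, DESeq2, limma-voom and the replicate block of the adipogenic cultures called 0, and the block on the 6 adipogenic libraries alone called 1 lower, Stau2 (0.0482). The related editing gene Adarb1 stood at 10.6 ± 2.19 CPM with IFNγ and 20.9 ± 14.2 CPM without it (adjusted p = 0.43).

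Of 10 genes of DNA sensing, 3 rose. Samhd1 codes for an enzyme that depletes the building blocks of DNA. It averaged 1164 ± 445 CPM with IFNγ and 173 ± 24.8 CPM without it (2.75 ± 0.30, adjusted p = 0.00252), a call kept in all 17 alternative fits. Tmem173, the gene of the adaptor STING, averaged 71.4 ± 14.0 CPM with IFNγ and 27.6 ± 6.99 CPM without it (1.37 ± 0.21, 0.0137). It lost its call without untreated library 4 (0.0662) or treated library 6 (0.0524). The gene listed as E330016A19Rik, whose identifier GENCODE M21 names Cgas, the sensor of cytosolic DNA, averaged 22.8 ± 4.34 CPM with IFNγ and 9.07 ± 2.32 CPM without it (1.33 ± 0.27, 0.0497). Its call was lost without any 1 of the 6 libraries (adjusted p up to 0.163). The list held 1 called gene without untreated library 4 or treated library 6, and 5 with the replicate block. Only Ifnb1 and Ifna4 were looked at among the type I interferon genes that these sensors are known to switch on. Both were close to undetected, with at most 7 counts of Ifnb1 and at most 5 of Ifna4 in any of the 9 libraries. Of the receptor genes, Ifnar2 stood at 64.8 ± 12.1 CPM with IFNγ and 41.7 ± 11.0 CPM without it (adjusted p = 0.2, with the replicate block 0.0257), and Ifnar1 at 63.8 ± 13.4 CPM with IFNγ and 80.9 ± 16.8 CPM without it (0.508).

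In osteogenic against untreated adipogenic progenitors 7 of the 9 OAS and RNase L genes were lower, with a list median of −4.10. Oasl2 averaged 4.64 ± 1.54 CPM in osteogenic libraries and 89.2 ± 34.9 CPM in untreated adipogenic ones (log2 fold change −4.26 ± 0.39, adjusted p = 0.00205). With limma-voom 4 of this list were lower, and 3 were without osteogenic library 4, 5 or 6. Of 26 genes of RIG-I-like receptor signalling 5 were lower, Irf7, Trim25 and Zc3hav1 and, named after their values were seen, Tbk1 and Rela. Irf7 averaged 3.67 ± 0.872 CPM in osteogenic libraries and 75.5 ± 23.2 CPM in untreated adipogenic ones (−4.36 ± 0.32, adjusted p = 0.00102). Trim25 averaged 29.0 ± 7.37 CPM in osteogenic and 107 ± 31.6 CPM in untreated adipogenic libraries (−1.89 ± 0.26, 0.00991). The count of 5 became 3 without untreated library 6 or osteogenic library 6, and 2 without osteogenic library 4 or 5. Mlkl was lower too (−1.62 ± 0.36, 0.042), a call lost in 9 of 16 alternative fits, among them those without untreated library 4, 5 or 6 (up to 0.106) and without osteogenic library 5 (0.145) or 6 (0.121). None of the genes of endosomal receptor signalling, PKR and translation control, RNA editing, DNA sensing and the interferon receptor passed there, of 9, 11, 7, 10 and 2 tested. At an unadjusted p under 0.05, 1, 1, 1, 3 and 0 of them were lower and 1, 0, 0, 1 and 0 higher, DESeq2 called 0, 1, 0, 2 and 0 of them lower, and limma-voom called 0.

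In treated adipogenic against osteogenic progenitors all 9 OAS and RNase L genes were higher, with a list median of 6.62 on the log2 scale. Of 26 genes of RIG-I-like receptor signalling 7 were higher, with a median of 0.36, and Irf7 had the largest log2 fold change of those named, at 6.58 (adjusted p = 2.89e-05). Of the partners of ZBP1 both Mlkl (3.84, adjusted p = 0.000622) and Ripk1 (1.01, 0.0016) were higher, as were 4 of 10 genes of DNA sensing. Of 9 tested genes of endosomal receptor signalling 1 was higher, Myd88, the adaptor of most Toll-like receptors but not of TLR3 (1.17, 0.0202). Its call was lost without osteogenic library 4 (0.0834) or 5 (0.0731). Ifnar1 was lower in the treated adipogenic group (−0.72, 0.0416), a call lost without treated library 5 (0.0979) or 6 (0.113) or osteogenic library 4 (0.0756), 5 (0.116) or 6 (0.105). None of the genes of PKR and translation control or RNA editing passed, of 11 and 7 tested. At an unadjusted p under 0.05, 2 and 0 of them were higher and 1 and 1 lower, DESeq2 called 1 and 0 higher and 1 and 1 lower, and limma-voom called 0.

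Reads of overlapping genes cannot be assigned with certainty, because the strand setting of the authors' counting is not given in the sources used here. In GENCODE M21 exons of 4 members overlap an opposite-strand gene, Adar with Chrnb2 over 1365 bases, Tlr3 with Gm45542 over 381, Eif2ak2 with Gm26637 over 174 and with a ribosomal RNA copy over 47, and Dhx58 with Dhx58os over 141. Chrnb2 had 7 to 30 counts in a library, where Adar had 745 to 12401. Ddx58, Ifih1, Mavs and Zbp1 have no such neighbour in that annotation.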

How the data were processed

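Directional libraries of poly(A) RNA from 9 cultures were pooled over all lanes of a HiSeq sequencer, per the labels' protocols. The deposited values are whole-number read counts per Ensembl gene, not normalized, with each gene's exonic length. CASAVA 1.8.0, bedtools 2.11 and the build mm9 are named in the submitters' processing notes. Aligner, counter and strand setting: not given in the sources used here. Titles and series design gave the groups.

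The test used edgeR 4.0.16 in R 4.3.3: filterByExpr by group (15098 of 24186 genes), TMM, and a robust quasi-likelihood fit of the group term over all 9 libraries, at an adjusted p of 0.05 (Benjamini-Hochberg). The SE is the log2 fold change over the square root of F. The script was tested on simulated data. With 3 libraries against 3 an exact two-sided permutation test could reach 0.1 at the lowest. Totals ran from 27440089 to 39251602 counts, and replicates of a group differed beyond sampling noise.

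Whether label numbers pair the libraries was judged from their deviations over all genes tested, a check that uses no calls. The main test left the pairing out, and the paired fits are alternatives. Treated and untreated libraries of one number deviated together from their group means (correlations 0.778, 0.769 and 0.779) and were taken as pairs. Osteogenic numbers did not pair (−0.0546 to 0.0552).

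The members, the pathway lists and the tests were chosen with earlier results of these data known. Named list genes are up to 4 per list with the smallest adjusted p with IFNγ and a mean of at least 1 CPM, and the text gives those that passed and some that did not. Of 93 list entries 90 were in the table, and Ifna1, Ifna2 and Ifna5 were not analysed here. The alternatives were other scalings, no filter, DESeq2 1.42.0, limma-voom (limma 3.58.1), 2-group fits, replicate blocks, summed identifiers and leaving out each library.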

Additional observations from a re-analysis of the deposited data

How the results depend on the processing

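Among the 8 members, no called fold change turned round under any alternative. The one sign that did was that of Mavs in treated adipogenic against osteogenic progenitors, which was not called and became 0.011 with total counts only. The number of members called with IFNγ was 5, and it was 3 with only the 6 libraries compared and 2 to 6 with 1 library left out. With DESeq2, with limma-voom and with the replicate block of the adipogenic cultures it was 7. A replicate block on the 6 libraries alone also gave 7, and on all 9 libraries 6. In osteogenic against untreated adipogenic progenitors it was 6, and 4 to 6 with 1 library left out. The replicate block on the 6 libraries of that comparison, whose numbers do not pair, left 1 member called. In treated adipogenic against osteogenic progenitors it was 7, also with each library left out.

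Counts over all genes moved more. With IFNγ 341 passed, against 1068 with DESeq2, 178 in a fit of the 6 libraries alone, 2446 when a replicate block was added to it and 1631 with the replicate block of the adipogenic cultures, and 194 to 278 with 1 library left out. In osteogenic against untreated adipogenic progenitors 780 passed, against 2226 with DESeq2, 23 with the replicate block on 6 libraries, 1244 with the replicate block on all 9 and 159 to 475 with 1 library left out. In treated adipogenic against osteogenic progenitors 2525 passed, against 3830 with DESeq2, 1257 with the replicate block on 6 libraries and 1312 to 1979 with 1 library left out. The cause was not tested, except that left-out fits hold fewer libraries. The replicate block of the adipogenic cultures added the calls of Dhx58 and Eif2ak2 and changed no other call of a member. In osteogenic against untreated adipogenic progenitors, where no gene of RNA editing or DNA sensing was called, the replicate block on all 9 libraries called 1 of each list lower. Scaling by total counts moved the median of all genes to −0.124 in osteogenic against untreated adipogenic progenitors and to 0.123 in treated adipogenic against osteogenic progenitors, on the log2 scale. Depth limits Zbp1 in osteogenic libraries, at 11 to 15 counts.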
